A study of Mus musculus with 6 samples.

Results

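The genes described here are 51 mouse genes that make ribosomes or work in the nucleolus, in bone marrow cells grown with or without added potassium chloride (KCl). They were taken by gene symbol from the deposited table, which held 51 of the 51 among its 19162 genes. All 51 passed the filter on low counts that left 13326 genes to test. The cells came from C57BL/6J mice of unstated age and were grown for 4 days with 40 ng/mL of granulocyte-macrophage colony-stimulating factor (GM-CSF), a cytokine that makes myeloid precursors divide and mature, which both groups received. The control group had nothing further, and the KCl group had an additional 34.7 mM of KCl. Extra KCl also raises osmolality, and the effects of potassium and of osmolality cannot be told apart in this design. The series calls the cells BM-MDSCs under high potassium (bone marrow-derived myeloid-derived suppressor cells), and its labels name no sorting step. Each group had 3 libraries, numbered 1, 2 and 4. No label ties a number to a mouse or a culture, and p-values reflect only how these libraries vary, which may be technical variation.

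Ribosomes are assembled in the nucleolus, where RNA polymerase I copies the ribosomal DNA into a long precursor RNA. Guide RNA particles with box C/D or box H/ACA snoRNAs then modify that precursor, and large assemblies fold, cut and load it with ribosomal proteins to form the 40S and 60S subunits. The transcription factor MYC is known to drive many genes of this programme in dividing cells, in part through the DNA word CACGTG, and ribosome production falls as myeloid precursors stop dividing and mature.

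The promoters of 5 of the genes are shown because the genes' transcripts followed opposite courses in the results below. Grwd1 and Utp20 were exchanged in replicate 4, meaning here that both KCl libraries were below both control libraries in replicates 1 and 2 while KCl 4 was above control 4. Tsr1 and Ltv1 were lower in every KCl library, as was Gar1, which has no CACGTG in the window. Each promoter runs 5′ to 3′ on the gene's strand from 250 bases before to 50 bases after the start of transcription, as RefSeq gives it for GRCm38.p6, the mm10 assembly. CACGTG, which is its own reverse complement, is in capitals. The windows are chr7:45830740-45831039 (minus strand) for Grwd1, chr10:88826765-88827064 (minus) for Utp20, chr11:74897830-74898129 (plus) for Tsr1, chr10:13193088-13193387 (minus) for Ltv1 and chr3:129831347-129831646 (minus) for Gar1.
Grwd1: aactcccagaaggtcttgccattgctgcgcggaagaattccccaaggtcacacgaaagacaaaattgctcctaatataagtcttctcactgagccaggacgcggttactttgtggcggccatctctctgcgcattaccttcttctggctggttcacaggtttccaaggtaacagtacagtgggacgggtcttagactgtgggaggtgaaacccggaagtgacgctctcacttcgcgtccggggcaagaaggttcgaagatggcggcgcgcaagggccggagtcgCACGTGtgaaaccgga
Utp20: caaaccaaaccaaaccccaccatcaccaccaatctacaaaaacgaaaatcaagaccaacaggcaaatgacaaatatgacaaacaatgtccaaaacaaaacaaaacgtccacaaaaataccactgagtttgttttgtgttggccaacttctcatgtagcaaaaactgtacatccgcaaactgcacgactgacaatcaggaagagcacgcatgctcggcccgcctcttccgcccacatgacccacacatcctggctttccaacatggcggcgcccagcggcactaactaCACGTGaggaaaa
Tsr1: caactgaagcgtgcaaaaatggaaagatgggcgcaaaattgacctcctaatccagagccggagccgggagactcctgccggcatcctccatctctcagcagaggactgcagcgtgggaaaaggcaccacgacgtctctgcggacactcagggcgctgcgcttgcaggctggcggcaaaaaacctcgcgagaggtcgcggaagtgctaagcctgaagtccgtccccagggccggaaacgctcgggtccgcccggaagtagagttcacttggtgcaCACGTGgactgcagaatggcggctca
Ltv1: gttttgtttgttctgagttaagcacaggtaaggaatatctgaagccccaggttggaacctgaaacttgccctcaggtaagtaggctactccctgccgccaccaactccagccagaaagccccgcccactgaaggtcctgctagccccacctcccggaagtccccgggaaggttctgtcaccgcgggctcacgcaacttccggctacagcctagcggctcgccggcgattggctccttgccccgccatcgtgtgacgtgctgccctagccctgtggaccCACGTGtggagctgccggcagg
Gar1: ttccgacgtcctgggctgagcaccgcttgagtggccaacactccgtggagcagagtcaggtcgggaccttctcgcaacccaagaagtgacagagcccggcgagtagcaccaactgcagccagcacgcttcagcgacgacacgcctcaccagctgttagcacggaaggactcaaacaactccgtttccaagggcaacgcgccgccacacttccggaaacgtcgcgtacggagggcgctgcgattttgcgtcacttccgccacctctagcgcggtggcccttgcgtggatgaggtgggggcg

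Promoters in this table were matched for 45 of the 51 genes, and those of Bop1, Rrp12, Myc, Fbl, Rrs1 and Npm1 were not used here. CACGTG was present in a promoter of 10 of the 45 genes (22.2%), namely Imp4, Nop2, Grwd1, Ltv1, Utp20, Pes1, Mybbp1a, Tsr1, Rrn3 and Wdr43. The share was 8.09% of all 27025 genes in the table and 11.7% of its 9765 tested genes. In the 50 bases after the start, a window chosen after the positions were seen, 7 of the 45 genes (15.6%) held it, against 1.9% of tested genes. In Grwd1, Utp20, Tsr1 and Ltv1 the word began 34, 37, 24 and 28 bases after the start. RefSeq and GENCODE can place a start differently: the last 30 bases of 47 of the 53 promoters of these genes, the 5 printed ones among them, stood in a GENCODE transcript of the gene, and those of Imp4, Ncl, Nop2, Ddx10, Mybbp1a and Ubtf did not. Of the 10 genes with the word, Tsr1 and Ltv1 were lower in every KCl library and all the others were exchanged in replicate 4, beside 39 exchanged among the 51 genes. A match is a description of the letters and shows no binding.

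Libraries held 14118724 to 21694831 counts, and levels are given in TMM-scaled counts relative to library size (CPM). The replicate 4 libraries stand apart from the others in a way that touches every result. Control 4 and KCl 4 were averaged for each of the 8231 genes whose counts averaged 300 or more, and the result was divided by the average of the remaining 4 libraries. The log2 of this ratio had an SD over genes of 0.0106. Sampling of reads by itself would give 0.0442, and 14 pairs made of other libraries ranged from 0.123 to 0.262. For the 51 genes, the mean of this pair was 98.3% to 100.4% of the mean of the other 4 libraries. The size of the difference between the 2 libraries also followed the others. Over the 8231 genes, the SD of log2 CPM between control 4 and KCl 4 was a median of 0.799 times that of the other 4 libraries, with quartiles 0.264 apart (0.679 and 0.943), where the quartiles of 14 other pairs lay 0.587 to 1.07 apart. Over the 51 genes, the absolute log2 ratio of KCl 4 to control 4 was a median of 0.948 times the absolute log2 fold change in replicates 1 and 2, with quartiles of 0.91 and 1.03 and a range from 0.0356 to 1.55. The sign of the replicate 4 difference was not the same for all genes. The sources used here name no processing that ties the libraries in this way. Because p-values with replicate 4 included may be too small, replicate 4 is given apart throughout.

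In replicates 1 and 2, both KCl libraries were below both control libraries for 51 of the 51 genes, where this held for 32.4% of all tested genes. The median log2 fold change of the 51 genes was -0.33, beside -0.00 over all tested genes. No single gene passed the adjusted threshold in these 4 libraries (adjusted p from 0.0601 to 0.462, edgeR quasi-likelihood test, Benjamini-Hochberg adjusted, n = 2 per group). The share of all tested genes that passed was 0.458%. At an unadjusted p under 0.05, 39 of the 51 genes passed, beside 29.8% of tested genes. DESeq2 called 9 of the 51 genes lower in these libraries, beside 2.72% of the genes it tested, and limma-voom called 0, beside 0.0813%.

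In replicate 4 the direction was the other way for most of them. KCl 4 was above control 4 for 39 of the 51 genes, beside 51.2% of all tested genes, and below it for 12. Being below in replicates 1 and 2 and above in replicate 4 thus held for 39 of 51 genes (76.5%), beside 13.8% of tested genes. Only genes below in replicates 1 and 2, as all 51 were, can be exchanged. Among tested genes below there, 1844 of 4313 were exchanged. For 38 of the 51 genes control 4 lay nearer the mean of KCl 1 and 2 while KCl 4 lay nearer the mean of control 1 and 2, beside 39.1% of tested genes. The median log2 ratio of KCl 4 to control 4 was 0.26, beside 0.02 over all tested genes. The 95% counting interval of this ratio lay above 0 for 37 of the 51 genes and below 0 for 9, and it was not counted over all tested genes. With 1 library per group in replicate 4, that interval covers counting error only and there is no test of KCl within replicate 4. The interval also assumes independently sampled reads, whereas the mean of this pair varied less over genes than sampling would give (SD 0.0106 against 0.0442).

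The difference between the KCl effect in replicate 4 and in replicates 1 and 2 had a median of 0.55 on the log2 scale over the 51 genes, beside -0.04 over all tested genes. Replicate 4 was set apart because Grwd1, 1 of the 51, was already known to be exchanged there, and all 51 were chosen with earlier results known. The replicate 4 pair is also tied to the other libraries. The values that follow for the 51 genes are therefore a description and no separate support. In a test of this difference with 2 residual degrees of freedom, none of the 51 genes passed (adjusted p from 0.323 to 1, edgeR quasi-likelihood test, Benjamini-Hochberg adjusted). Of all tested genes 0.0075% passed, which is 1 gene. At an unadjusted p under 0.05, 37 of the 51 genes passed, beside 11.2% of tested genes, and DESeq2 called 1 of the 51, beside 0.694% of the genes it gave an adjusted p.

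With all 6 libraries together, 10 of the 51 genes fell in KCl, none rose and 41 did not pass the test (edgeR quasi-likelihood test, Benjamini-Hochberg adjusted p under 0.05, n = 3 per group). Among all tested genes 10.5% fell and 12.4% rose, so the share of the 51 genes that fell, 19.6%, stands beside a background of 10.5%. The 10 genes were Npm1, Ncl, Ddx10, Tsr1, Nop14, Ltv1, Gar1, Nop58, Polr1e and Nob1. All 3 KCl libraries were below all 3 control libraries for these 10 genes and for Polr1c and Ddx18, which is 12 of 51, beside 18.4% of tested genes. The other 39 genes are those exchanged in replicate 4. Without both replicate 4 libraries 0 of the 51 genes passed, beside 0.126% of tested genes that were called lower. Without KCl 4 alone 3 passed, namely Npm1, Ncl and Ddx10, beside 4.04% of tested genes called lower. With replicate 4 as a batch term 5 passed, namely Npm1, Ncl, Ddx10, Nop14 and Tsr1, beside 4.89%.

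**Figure D1:**
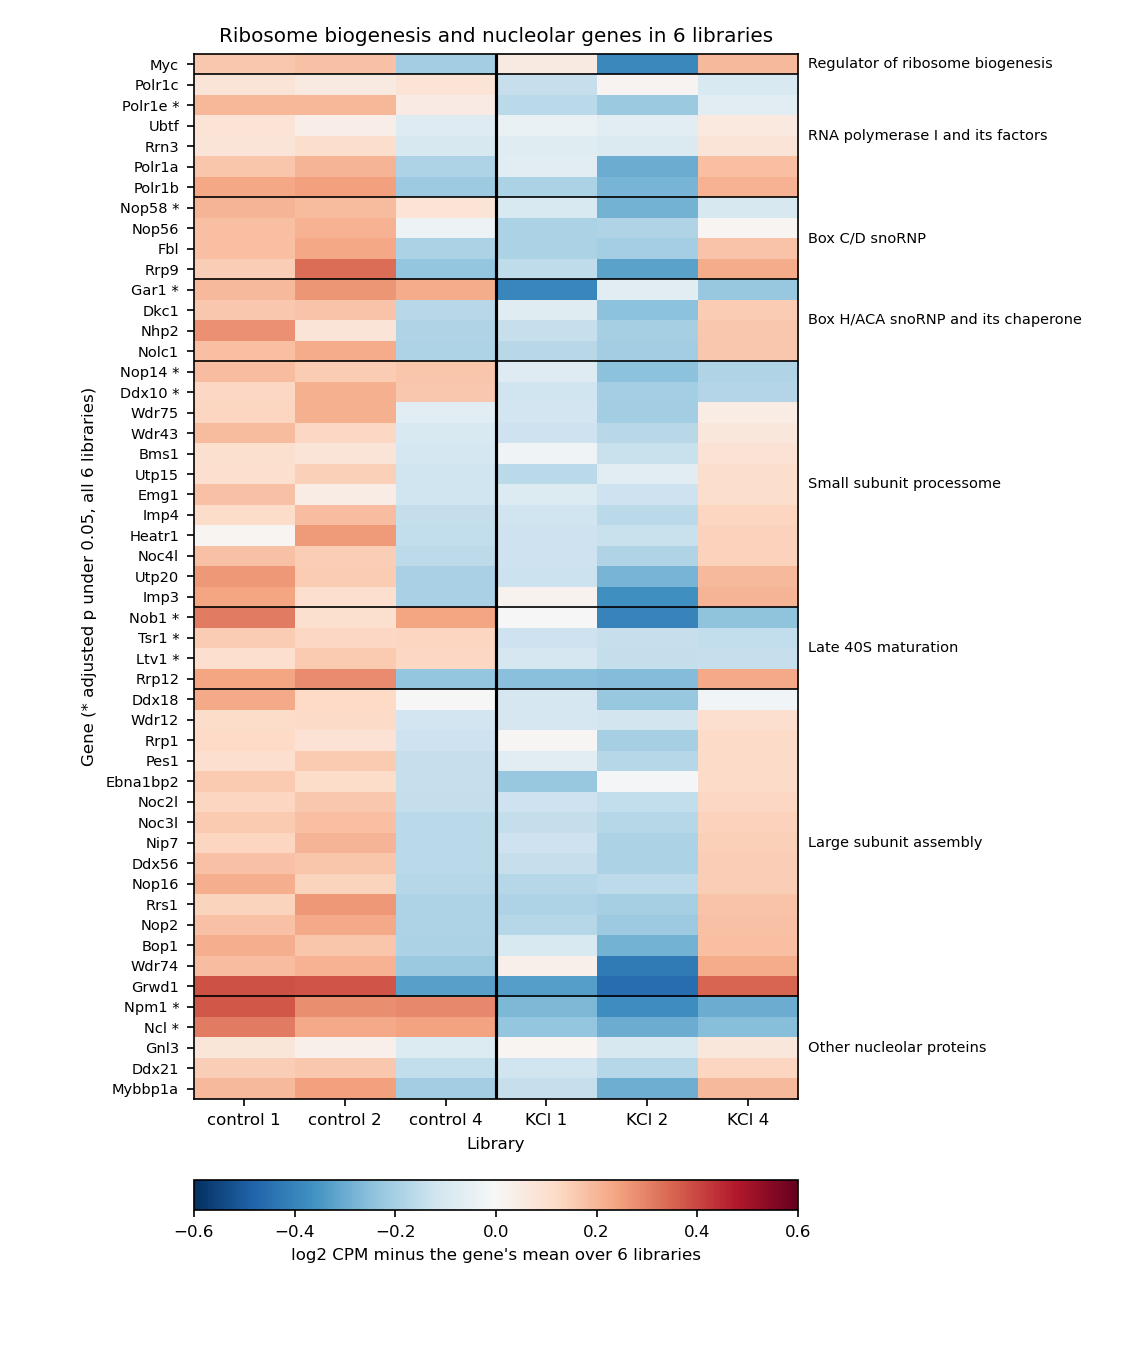
Each row is one of the 51 genes, grouped by role, and each column a library, with the colour giving log2 CPM minus the gene's mean over the 6 libraries and a star marking an adjusted p under 0.05 with all 6 libraries. Control 1 and 2 are above KCl 1 and 2 in every row, and for 39 genes KCl 4 is above control 4.

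Of the genes above the machinery, Myc, the transcription factor that drives much of the programme, gave 84.4, 85.2 and 65.2 CPM in control 1, 2 and 4 and 78.2, 57.7 and 86.3 CPM in KCl 1, 2 and 4. KCl 4 was the highest library and KCl 2 the lowest, and the groups overlapped. Its log2 fold change was -0.32 ± 0.16 (SE, n = 2 per group) in replicates 1 and 2, edgeR adjusted p = 0.238. Within replicate 4 the log2 ratio was 0.40 (95% counting interval 0.29 to 0.52). With all 6 libraries the value was -0.08 ± 0.17, edgeR adjusted p = 0.786, and the test of the difference between replicates gave 0.72 ± 0.28, edgeR adjusted p = 0.442. Myc lies on chromosome 15 at 61985391 to 61990374 on the plus strand of mm10.

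RNA polymerase I and its factors are represented by 6 genes, of which Polr1e fell with all 6 libraries and the other 5 did not pass. Polr1e, a subunit of the polymerase that helps it start, gave 19.5, 19.5 and 17.6 CPM in control 1, 2 and 4 and 15.2, 14.6 and 16.3 CPM in KCl 1, 2 and 4. The groups did not overlap, and the log2 fold change was -0.30 ± 0.08 (SE, n = 3 per group), edgeR adjusted p = 0.0386. This call was lost in each of the 6 fits that left out 1 library (adjusted p 0.0646 to 0.109), with no filter (0.0523) and with DESeq2 (0.0685), and within replicate 4 the ratio was -0.11 (95% counting interval -0.36 to 0.14).

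Polr1a, the largest catalytic subunit, gave 80.3, 82.6 and 62.98 CPM in control 1, 2 and 4 and 68.5, 58.3 and 81.2 CPM in KCl 1, 2 and 4, so that control 4 lay between KCl 1 and KCl 2, and KCl 4 between control 1 and control 2. Its log2 fold change was -0.36 ± 0.10 in replicates 1 and 2 (edgeR adjusted p = 0.113), and the ratio was 0.37 (95% counting interval 0.24 to 0.49) in replicate 4. Polr1b, the second-largest subunit, had the larger values -0.48 ± 0.09 and 0.43 in the same order. Rrn3, the factor that brings the polymerase to the promoter, gave -0.17 in replicates 1 and 2 and 0.17 in replicate 4. Ubtf, which binds along active ribosomal DNA, gave 162, 157 and 145 CPM in control and 149, 147 and 159 CPM in KCl (libraries 1, 2 and 4 in each) with the groups overlapping, a log2 fold change of -0.11 ± 0.07 in replicates 1 and 2 (edgeR adjusted p = 0.308) and 0.13 (95% counting interval 0.05 to 0.22) in replicate 4. Polr1c, a subunit shared with RNA polymerase III, was lower in every KCl library at -0.14 ± 0.06 but did not pass (edgeR adjusted p = 0.158).

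The box C/D particles add methyl groups to ribosomal RNA. Their methyltransferase fibrillarin, Fbl, gave 96.4, 99.7 and 74.5 CPM in control 1, 2 and 4 and 74.4, 73.7 and 95.8 CPM in KCl 1, 2 and 4. Control 4 lay with KCl 1 and 2, and KCl 4 with control 1. The log2 fold change of Fbl was -0.41 ± 0.07 in replicates 1 and 2 (edgeR adjusted p = 0.0742), and the ratio was 0.36 (95% counting interval 0.25 to 0.47) in replicate 4. Nop58, a core protein of the same particle, gave 99.8, 98.8 and 91.8 CPM in control 1, 2 and 4 and 81.3, 71.1 and 81.1 CPM in KCl 1, 2 and 4 and fell, with a log2 fold change of -0.32 ± 0.07 with all 6 libraries (edgeR adjusted p = 0.0254), a call kept only in the fit without KCl 2 among the 6 that left out 1 library (adjusted p 0.0512 to 0.0809 in the others). Nop56, its partner, gave -0.38 ± 0.07 in replicates 1 and 2 and 0.04 (95% counting interval -0.06 to 0.15) in replicate 4, and Rrp9, a component of the U3 particle, gave -0.48 and 0.45.

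The box H/ACA particles turn uridine into pseudouridine. Gar1, a core protein, gave 27.5, 28.9 and 28.1 CPM in control 1, 2 and 4 and 18.4, 23.03 and 20.6 CPM in KCl 1, 2 and 4 and fell, with a log2 fold change of -0.45 ± 0.09 (edgeR adjusted p = 0.0184), without overlap between groups. The Gar1 call was lost when control 4 or KCl 4 was left out (adjusted p 0.0633 to 0.0693). The other 3 genes of the group were exchanged in replicate 4. Dkc1, the pseudouridine synthase, gave -0.33 in replicates 1 and 2 and 0.32 in replicate 4, and Nhp2, a core protein, gave -0.35 and 0.34. Nolc1, a chaperone of these particles, gave -0.39 and 0.35.

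The small subunit processome, which folds and cuts the 40S part of the precursor, had 12 genes, of which 2 fell with all 6 libraries and 10 were exchanged in replicate 4. Ddx10, a helicase-family protein, gave 44.8, 47.6 and 45.9 CPM in control 1, 2 and 4 and 37.8, 35.6 and 36.4 CPM in KCl 1, 2 and 4. Its log2 fold change was -0.33 ± 0.05 (SE, n = 3 per group; edgeR adjusted p = 0.00913). The Ddx10 call was kept in each of the 6 fits that left out 1 library and lost without both replicate 4 libraries (edgeR adjusted p = 0.107). Ddx10 gave -0.33 in replicates 1 and 2 and -0.33 (95% counting interval -0.49 to -0.18) in replicate 4. The size of the replicate 4 difference followed replicates 1 and 2 over most of the 51 genes, so this match is no separate support. Nop14, an assembly factor of the processome, gave 63.7, 62.2 and 62.8 CPM in control 1, 2 and 4 and 53.05, 47.2 and 49.5 CPM in KCl 1, 2 and 4 and fell, with a log2 fold change of -0.33 ± 0.06 (edgeR adjusted p = 0.0117), a call lost without KCl 4 (adjusted p = 0.0529). Its exons overlap those of another annotated gene by 144 bases.

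The other 10 genes of the processome had log2 fold changes from -0.41 (Utp20) to -0.16 (Bms1) in replicates 1 and 2. In replicate 4 their ratios ran from 0.11 for Wdr75 to 0.40 for Imp3. Utp20 and Heatr1, large scaffold proteins, gave -0.41 and -0.27 in replicates 1 and 2 and 0.39 and 0.28 in replicate 4. Utp15, Wdr43 and Wdr75, which act in the subcomplex that first binds the precursor, gave -0.24, -0.30 and -0.33 in replicates 1 and 2 and 0.23, 0.16 and 0.11 in replicate 4. Imp3 and Imp4, partners of the U3 RNA, gave -0.33 and -0.29, then 0.40 and 0.27. The GTPase gene Bms1, the methyltransferase gene Emg1 and Noc4l, a partner of Nop14, gave -0.16, -0.22 and -0.31, then 0.19, 0.23 and 0.29.

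Late maturation of the 40S subunit had 4 genes, and 3 of them fell with all 6 libraries. Tsr1, a GTPase-like factor that holds the immature subunit, gave 64.4, 63.3 and 63.5 CPM in control 1, 2 and 4 and 53.2, 52.7 and 52.4 CPM in KCl 1, 2 and 4. The 3 libraries of each group lay close together (SD 0.614 CPM in control and 0.413 CPM in KCl), and the log2 fold change was -0.27 ± 0.05 (edgeR adjusted p = 0.00946), a call lost without KCl 4 (adjusted p = 0.0509). Since the mean of the replicate 4 pair followed the other libraries more closely than sampling of reads would give, this closeness is no separate support. Its exons share 1240 bases with Srr, and reads from that stretch may not be told apart, since whether reads were counted by strand is not given. Ltv1, an export and assembly factor, gave 50.5, 52.5 and 51.4 CPM in control 1, 2 and 4 and 43.96, 42.7 and 42.8 CPM in KCl 1, 2 and 4 and fell, with a log2 fold change of -0.26 ± 0.05 (edgeR adjusted p = 0.0139), a call lost without control 4 or KCl 4 (adjusted p 0.0685 to 0.0721).

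Nob1, the endonuclease that makes the final cut of the small subunit RNA, gave 48.6, 41.8 and 46.2 CPM in control 1, 2 and 4 and 39.02, 29.6 and 33.1 CPM in KCl 1, 2 and 4. The groups did not overlap, but KCl 1 and control 2 came close, and the log2 fold change of -0.42 ± 0.12 (edgeR adjusted p = 0.0449) passed only without KCl 1 among the 6 fits that left out 1 library (adjusted p 0.0519 to 0.129 in the others), and not with library-size scaling (adjusted p = 0.0522). The other gene of the group, Rrp12, an export factor, gave 48.3, 49.96 and 34.9 CPM in control 1, 2 and 4 and 34.4, 34.2 and 47.9 CPM in KCl 1, 2 and 4, with control 4 beside KCl 1 and 2 and KCl 4 beside control 1 and 2. Rrp12 had -0.52 ± 0.08 in replicates 1 and 2 (edgeR adjusted p = 0.0689) and 0.46 (95% counting interval 0.30 to 0.62) in replicate 4.

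Large subunit assembly had 15 genes, none of which passed with all 6 libraries, and 14 of which were exchanged in replicate 4. Grwd1, a histone-binding protein of the nucleolus that also takes part in 60S assembly, had the largest log2 fold change of the 51 genes in replicates 1 and 2 and the largest ratio in replicate 4. It gave 32.4, 32.3 and 19.8 CPM in control 1, 2 and 4 and 19.7, 18.1 and 31.7 CPM in KCl 1, 2 and 4. Control 4 lay beside KCl 1 and 2, and KCl 4 beside control 1 and 2. Replicate 4 is given apart because Grwd1 was already known to be exchanged there, so its values in replicate 4 are a description and support nothing. The log2 fold change of Grwd1 was -0.77 ± 0.10 in replicates 1 and 2 (SE, n = 2 per group; edgeR adjusted p = 0.0601), and in replicate 4 the ratio was 0.68 (95% counting interval 0.47 to 0.89). With all 6 libraries it was -0.29 ± 0.28 (edgeR adjusted p = 0.576). Grwd1 lies on chromosome 7 at 45825223 to 45830944 on the minus strand.

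The other 14 genes of the group lay between -0.40 (Nop2) and -0.19 (Rrp1) in replicates 1 and 2. The PeBoW complex, which binds the 60S precursor, gave -0.38, -0.25 and -0.22 for Bop1, Pes1 and Wdr12 in replicates 1 and 2 and 0.37, 0.25 and 0.21 in replicate 4. Nop2, an RNA methyltransferase, gave -0.40 and 0.36, and Rrs1, which brings the 5S particle into the subunit, -0.39 and 0.36. Noc2l and Noc3l, partners in early 60S assembly, gave -0.28 and -0.33 in replicates 1 and 2 and 0.26 and 0.30 in replicate 4. Nop16, Nip7, Ebna1bp2 and Wdr74, further assembly factors, gave -0.34, -0.32, -0.25 and -0.38, then 0.32, 0.31, 0.25 and 0.45.

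The group also holds the DEAD-box helicase genes Ddx56 and Ddx18. Ddx56 gave -0.34 in replicates 1 and 2 and 0.31 (95% counting interval 0.17 to 0.45) in replicate 4. Ddx18 gave 67.9, 63.1 and 57.97 CPM in control 1, 2 and 4 and 54.2, 49.6 and 57.5 CPM in KCl 1, 2 and 4, and its ratio in replicate 4 was -0.01 (95% counting interval -0.15 to 0.12), so that control 4 and KCl 4 could not be separated at this depth. Rrp1, an early 60S factor, gave -0.19 and 0.24.

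The remaining 5 genes encode abundant nucleolar proteins, and the 2 with the smallest p of all 51 in the fit of all 6 libraries are here. Npm1, nucleophosmin, a histone and ribosome chaperone of the outer nucleolus, gave 594, 557 and 561 CPM in control 1, 2 and 4 and 380.3, 355 and 373 CPM in KCl 1, 2 and 4. All KCl libraries lay far below all control libraries, and the log2 fold change was -0.63 ± 0.05 (SE, n = 3 per group; adjusted p = 0.00259, edgeR quasi-likelihood test, Benjamini-Hochberg adjusted). Npm1 gave -0.65 ± 0.09 in replicates 1 and 2 (edgeR adjusted p = 0.0617) and -0.59 (95% counting interval -0.64 to -0.54) in replicate 4. The genome holds 4 look-alike transcripts of Npm1 with at least 95% identity over at least 300 bases, which may share its reads. Npm1 lies on chromosome 11 at 33152287 to 33163206 on the minus strand.

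Ncl, nucleolin, which binds ribosomal DNA and precursor RNA, gave 871, 824 and 829.7 CPM in control 1, 2 and 4 and 599, 572 and 589 CPM in KCl 1, 2 and 4. The groups were again well apart, with a log2 fold change of -0.52 ± 0.05 (edgeR adjusted p = 0.00317), -0.53 ± 0.09 in replicates 1 and 2 (edgeR adjusted p = 0.0689) and -0.49 (95% counting interval -0.53 to -0.46) in replicate 4. The calls for Npm1 and Ncl were kept in each of the 6 fits that left out 1 library, all of which held a replicate 4 library. Both calls were lost without both replicate 4 libraries (edgeR adjusted p = 0.0617 and 0.0689). The difference between replicates was 0.04 ± 0.15 for Ncl and 0.06 ± 0.15 for Npm1 (edgeR adjusted p = 1 and 1). Ncl lies on chromosome 1 at 86344719 to 86359400 on the minus strand.

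Mybbp1a, a repressor-type partner of several transcription factors that also regulates ribosomal RNA, gave 249, 259 and 189 CPM in control 1, 2 and 4 and 199, 178 and 249.9 CPM in KCl 1, 2 and 4. KCl 4 matched control 1 and control 4 lay between KCl 1 and 2. Its values were -0.43 ± 0.09 in replicates 1 and 2 (edgeR adjusted p = 0.079) and 0.40 (95% counting interval 0.33 to 0.47) in replicate 4. Ddx21, a helicase of RNA polymerase I and II transcripts, gave -0.30 and 0.28. Gnl3, nucleostemin, a GTPase of dividing cells, had the smallest log2 fold change in replicates 1 and 2, at -0.10 ± 0.08, and gave 0.15 (95% counting interval 0.03 to 0.27) in replicate 4.

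**Figure D2:**
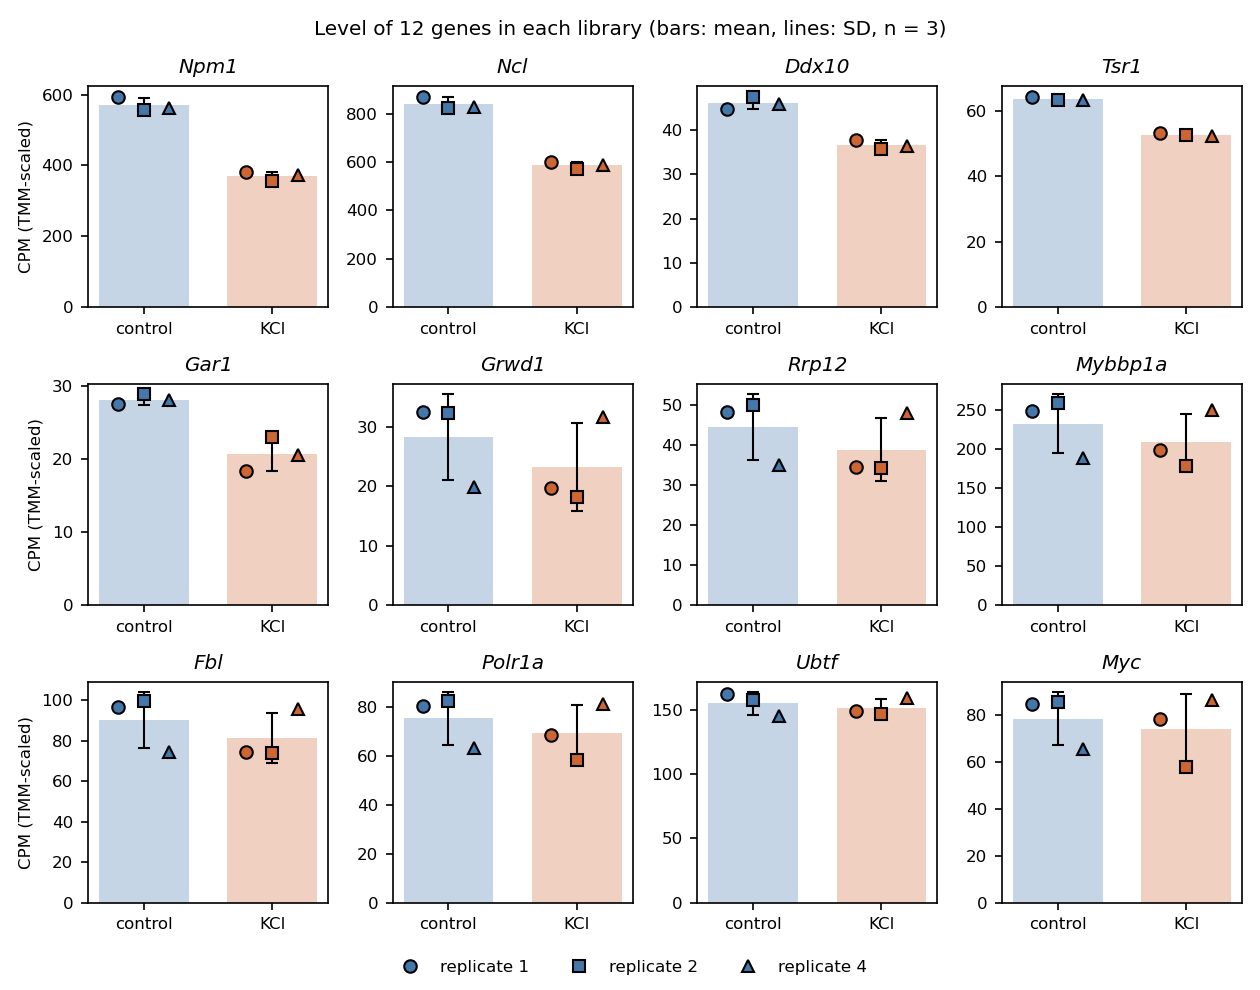
Each panel shows the CPM of a gene in the 3 control and 3 KCl libraries on an axis from 0, with bars at the group mean, lines for the SD (n = 3) and a marker shape for each replicate number. Npm1, Ncl, Ddx10, Tsr1 and Gar1 have every KCl library below every control library, whereas in Grwd1, Rrp12, Mybbp1a, Fbl, Polr1a, Ubtf and Myc the triangles of replicate 4 are the other way round.

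By role, the share exchanged in replicate 4 was 14 of 15 genes in large subunit assembly, 10 of 12 in the processome and 4 of 6 for RNA polymerase I. It was 3 of 4 in each kind of snoRNP, 3 of 5 among the other nucleolar genes and 1 of 4 (25%) in late 40S maturation. Over all tested genes this share was 13.8%. The median ratio in replicate 4 was 0.31 for large subunit assembly and -0.27 for late 40S maturation, while their medians in replicates 1 and 2 were -0.34 and -0.33. These groups are small and the contrast between them was not tested. The separation of the exchanged genes from the rest is drawn in the scatter of replicate 4 against replicates 1 and 2.

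**Figure D3:**
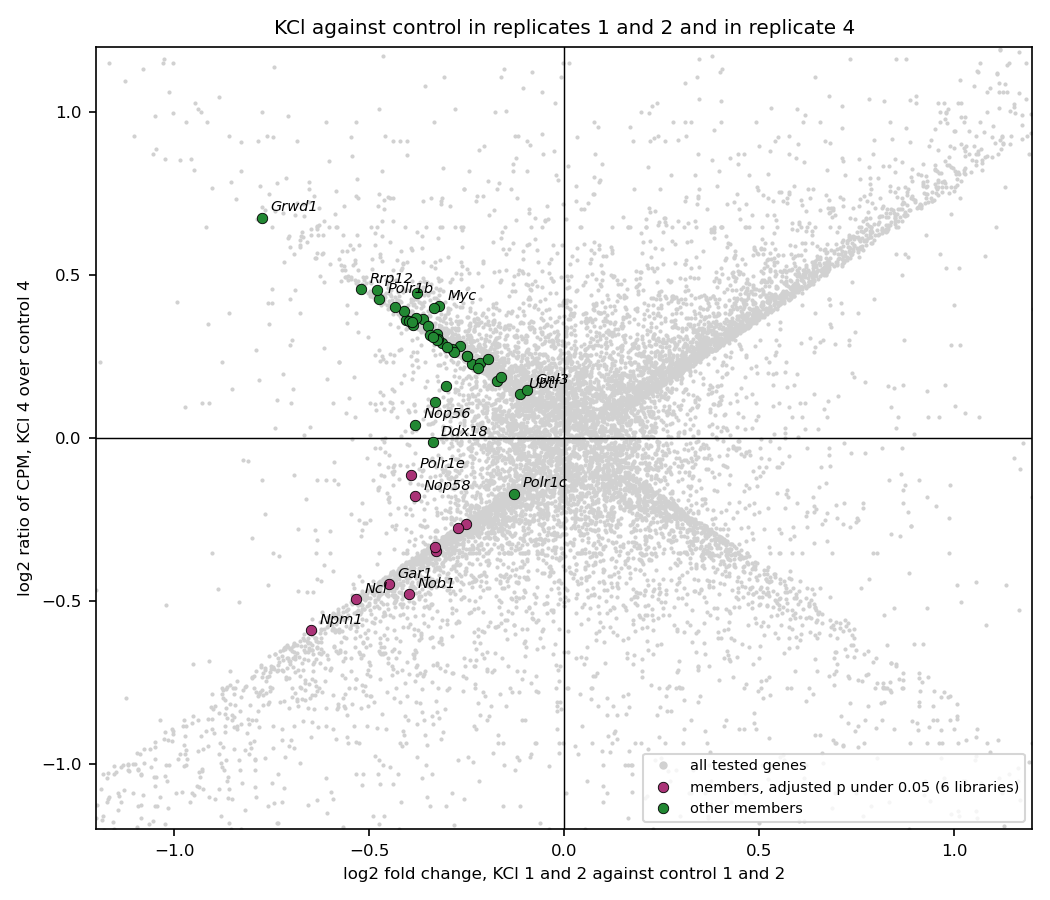
Each point is a gene, with its log2 fold change in replicates 1 and 2 on the x axis and the log2 ratio of KCl 4 to control 4 on the y axis, shown from -1.2 to 1.2. Grey points are all tested genes within that range and form 2 arms of opposite sign, the 39 exchanged genes lie in the upper left, and the 10 genes that fell with all 6 libraries, from Npm1 to Polr1e, lie in the lower left.

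By the deposited FPKM, the highest of these transcripts in control was Npm1 at 143 ± 5.59 FPKM (SD, n = 3), then Rrp1 at 89.5 ± 8.27, Fbl at 78.4 ± 12.1, Nhp2 at 70.1 ± 11.1 and Ncl at 69.9 ± 2.35 FPKM. The lowest was Wdr12 at 2.76 ± 0.25 FPKM, and the median of the 51 genes was 16.5 FPKM. This order may not hold as abundance. Fbl and Nop56 had control means of 90.2 and 104 CPM and exonic lengths of 4209 and 4099 bases, but 78.4 and 6.89 FPKM. The FPKM thus do not follow these lengths. The genes lie on 18 chromosomes. Introns or exons of 7 of them hold 21 annotated snoRNA genes, namely Nop56 (5), Nop58 (4), Ncl, Gnl3 and Wdr43 (3 each), Tsr1 (2) and Dkc1 (1). Of these 7 hosts Nop58, Ncl and Tsr1 fell with all 6 libraries, beside 10.5% of all tested genes. Exons of 18 genes overlap another gene and 10 genes have a look-alike transcript, so their counts are uncertain to that extent.

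Other genes of the pathway were read from lists chosen with earlier results of these data known. Of 101 further ribosome biogenesis factors, 19 fell (18.8%), 1 rose and 81 did not pass with all 6 libraries. Their median was -0.25 in replicates 1 and 2 and 0.17 in replicate 4. Of the 101 genes 87 were below in replicates 1 and 2, and 58 were exchanged (57.4%). Over all tested genes, 10.5% fell, 12.4% rose and 13.8% were exchanged. Surf6, a nucleolar protein of ribosome assembly, was the gene that rose, with 26.95, 27.2 and 28.1 CPM in control and 39.7, 37.3 and 36.6 CPM in KCl and a log2 fold change of 0.47 ± 0.06 (edgeR adjusted p = 0.00498). Rsl1d1, Naf1 and Gtpbp4, a nucleolar protein, an H/ACA assembly factor and a 60S GTPase, fell, with log2 fold changes of -0.33 ± 0.04, -0.43 ± 0.06 and -0.39 ± 0.06 (edgeR adjusted p = 0.00516, 0.00639 and 0.00723).

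Of 88 tested genes for cytosolic ribosomal proteins, 31 fell (35.2%, beside 10.5% of all tested genes), 0 rose (beside 12.4%) and 57 did not pass. Their median was -0.24 in replicates 1 and 2 and -0.14 in replicate 4. Of the 88 genes 69 were below in replicates 1 and 2, and 27 were exchanged (30.7%, beside 13.8% of all tested genes). Among tested genes below in replicates 1 and 2, 1844 of 4313 were exchanged. The 4 with the smallest p were Rpl41, Rpl39, Rpl38 and Rpl35, with log2 fold changes of -0.40 ± 0.05, -0.50 ± 0.06, -0.43 ± 0.06 and -0.35 ± 0.05 (edgeR adjusted p = 0.00422, 0.00485, 0.00572 and 0.00584). Many pseudogenes resemble these genes, so single values are uncertain.

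Beside 10.5% of all tested genes that fell and 12.4% that rose, 0 of 11 partners and antagonists of MYC fell and 1 rose. It was Mxd4, which encodes a protein that competes with MYC for its partner MAX, with 61.5, 33.3 and 46.9 CPM in control and 83.4, 80.2 and 81.6 CPM in KCl and a log2 fold change of 0.79 ± 0.21 (edgeR adjusted p = 0.0402), a call lost when control 4 or any 1 of the KCl libraries was left out (adjusted p 0.0954 to 0.105). Of 37 known MYC targets outside ribosome biogenesis, 6 fell (16.2%, beside 10.5% of all tested genes), 0 rose (beside 12.4%) and 31 did not pass. Their medians were -0.34 in replicates 1 and 2 and 0.26 in replicate 4. Of the 37 genes 33 were below in replicates 1 and 2, and 27 were exchanged (73%, beside 13.8% of all tested genes). Eif4ebp1, a translation repressor, Slc7a5, an amino acid carrier, Odc1, the first enzyme of polyamine synthesis, and Ccnd2, a cyclin, fell, with log2 fold changes of -0.43 ± 0.05, -0.36 ± 0.05, -0.38 ± 0.05 and -0.52 ± 0.07 (edgeR adjusted p = 0.00375, 0.00538, 0.00657 and 0.00665).

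Markers of dividing and maturing cells were read beside these genes. The summed level of 28 cell cycle genes was 5296, 5129 and 4494 CPM in control 1, 2 and 4 and 4461, 4487 and 5109 CPM in KCl 1, 2 and 4, and that of the 51 genes was 5738, 5673 and 4928 against 4534, 4280 and 5090.1 CPM. Both sums were lower in KCl 1 and 2 than in control 1 and 2 and higher in KCl 4 than in control 4. Of the 28 cell cycle genes 24 were below in replicates 1 and 2, and 18 were exchanged (64.3%, beside 13.8% of all tested genes). Among tested genes below in replicates 1 and 2, 1844 of 4313 were exchanged. With all 6 libraries 3 of the 28 fell (10.7%, beside 10.5% of all tested genes), 1 rose (beside 12.4%) and 24 did not pass.

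The summed level of 12 neutrophil markers was 15255, 16582 and 17940 CPM in control and 18790, 26642 and 19802 CPM in KCl libraries 1, 2 and 4. In replicates 1 and 2 both KCl libraries were above both control libraries for 11 of these 12 genes, beside 4213 of 13326 tested genes. In replicate 4 KCl was below control for 7 of the 12, and with all 6 libraries 3 rose and 9 did not pass. The summed level of 6 promyelocyte markers was 2198, 1556 and 1432 CPM in control and 2215, 1609 and 2374 CPM in KCl, and 6 of 6 were higher in KCl 4 than in control 4. In replicates 1 and 2 these markers were split, with both KCl libraries below both control libraries for 3 and above for 2, and with all 6 libraries 2 rose and 4 did not pass. By contrast, 10 dendritic cell markers gave 5666 to 7655 CPM in control and 4210 to 5264 CPM in KCl, with 10 of 10 lower in KCl 4 than in control 4, and 6 of the 10 fell with all 6 libraries. The sum of 8 eosinophil markers was 2353 to 2584 CPM in control and 962 to 1118 CPM in KCl, where 5 of the 8 fell and were lower in every KCl library, and 2 were higher in KCl 1 and 2 than in control 1 and 2. The sum of 6 monocyte markers was 1439 to 1704 CPM in control and 2136 to 2409 CPM in KCl, and 4 of the 6 rose. Over all tested genes, 10.5% fell and 12.4% rose with all 6 libraries, and KCl 4 was above control 4 for 51.2%. No neutrophil marker was at 0 in any library, Cd3e and Klrb1c of the lymphocyte list were at 0 in at least 1 library, and lymphocyte sums stayed under 50 CPM. In bulk RNA, fewer cells of a type and less RNA per cell cannot be told apart, and the part of these cell types in the results for the 51 genes was not tested.

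**Figure D4:**
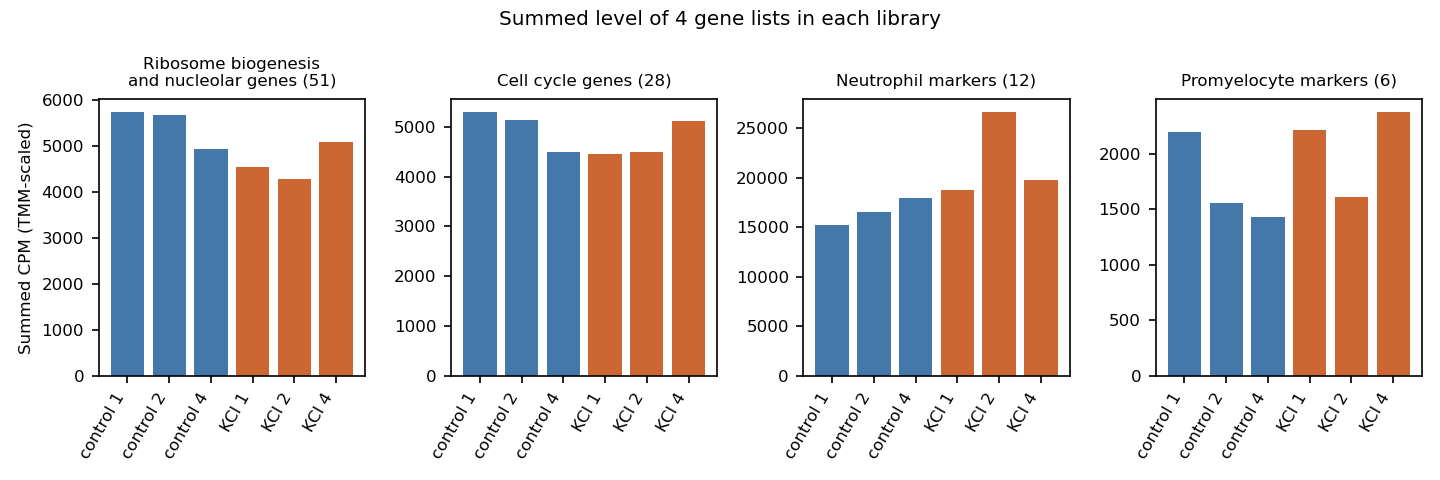
Each panel gives the summed CPM of a gene list in the 6 libraries on an axis from 0, blue for control and orange for KCl. The sums of the 51 genes and of 28 cell cycle genes are lower in KCl 1 and 2 than in control 1 and 2 and higher in KCl 4 than in control 4, and neutrophil markers are highest in KCl 2.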

How the data were processed

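Bulk RNA was sequenced from 3 control and 3 KCl libraries of GM-CSF-treated mouse bone marrow cells, with groups and replicate numbers taken from titles and treatment labels. Trizol extraction and NovaSeq sequencing are given per the labels' protocols. The tools listed per the submitters' processing notes are edgeR, StringTie 1.3.3b and HISAT2 2.0.4, with the mouse build mm10. Which program counted reads, and whether by strand, is not given in the sources used here. The authors deposited whole-number read counts per gene, and FPKM, which were used only to order levels between genes. The FPKM of Fbl and Nop56 did not follow the exonic lengths of the gene models, so that order is uncertain.

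Read counts went into edgeR 4.0.16 under R 4.3.3 (filterByExpr with a minimum count of 10 and total of 15, TMM scaling, robust quasi-likelihood test, 2-sided, Benjamini-Hochberg adjustment over all tested genes, threshold 0.05). Log2 fold changes are KCl minus control with their standard error (SE). Fits used all 6 libraries (13326 genes), replicates 1 and 2 (13525 genes), or an interaction of replicate 4 with KCl. Replicate 4 alone gave log2 ratios of CPM with 95% exact binomial counting intervals, which cover counting error only and assume independently sampled reads. Library totals of 14118724 to 21694831 set that precision. A gene is called exchanged where both KCl libraries 1 and 2 lay below both control libraries and KCl 4 lay above control 4. No label pairs the samples by replicate number, and the main fits used no pairing. Scripts were tested on simulated data. Gene models came from GENCODE M21 and promoters from RefSeq. Alternatives were other scalings and filters, DESeq2 1.42.0, limma-voom (limma 3.58.1), leaving out each library, a replicate block, and replicate 4 as a batch term.

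The 51 genes and all lists were chosen with earlier results of these data known. Values in every library were given for the 10 genes with the smallest p with all 6 libraries and for Myc, Grwd1, Fbl, Ncl, Npm1, Polr1a and Ubtf by rule, and for Rrp12, Mybbp1a and Ddx18 after their values were seen. Of each further list, up to 4 genes with the smallest p were named. Protein sequences were not analysed here. Values of some single genes are left out.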

Additional observations from a re-analysis of the deposited data

How the results depend on the processing

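With all 6 libraries, the 10 of the 51 genes that fell numbered 9 or 10 under DESeq2, limma-voom, a filter at a mean CPM of 5, no filter, and RLE, library-size or upper-quartile scaling. The count was 5 with replicate 4 as a batch term, 3 to 8 with each library left out, and 0 without both replicate 4 libraries. All tested genes gave 1402 that fell and 1655 that rose. These became 651 and 922 with the batch term, and 17 and 45 without both replicate 4 libraries. Leaving out each library gave 551 to 1356 and 852 to 1495, where the fits without control 4 (587 and 852) and without KCl 4 (551 and 954) held the fewest calls. Upper-quartile scaling gave 1735 that fell and 1422 that rose, so the balance of all genes depends on the scaling, while 39 of the 51 genes were exchanged in replicate 4 under each of the 4 scalings.

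In replicates 1 and 2, where 0 of the 51 genes, 17 genes lower and 45 genes higher passed, the numbers were 2, 53 and 129 with no filter and 9, 361 and 771 with DESeq2. Library-size scaling gave 35 lower and 101 higher genes and limma-voom 11 lower, and leaving out each library gave 0 to 39 lower and 0 to 54 higher. For the difference between replicates, where 0 of the 51 genes and 1 of all genes passed, no filter gave 4 of all genes, DESeq2 gave 1 of the 51 and 71 of all, and leaving out each library 0 to 8 of all. The cause of these shifts was not tested.

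With all 6 libraries the log2 fold change changed sign for 8 genes that did not pass. Leaving out each library, Myc ranged from -0.21 to 0.068, Heatr1 from -0.18 to 0.028, Imp3 from -0.22 to 0.050, Bms1 from -0.11 to 0.0058, Rrp1 from -0.12 to 0.031, Ebna1bp2 from -0.17 to 0.0061, Wdr74 from -0.25 to 0.055 and Gnl3 from -0.059 to 0.029. A window from 100 bases before to 50 after the start held CACGTG in 20.0% of the matched genes and 5.0% of all genes.

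Whether the replicate numbers pair the samples is not known. Over 13326 genes, deviations from the group means had correlations of 0.0227, -0.0555 and -0.889 for the libraries numbered 1, 2 and 4. Control 1 with KCl 2 gave -0.314, and control 2 with KCl 1 gave -0.305. These values cannot decide the question, because replicate 4 enters each group mean. With the replicate block, 4 of the 51 genes, 700 genes lower and 978 higher passed with all 6 libraries, and 3, 197 and 485 in replicates 1 and 2. Counting error differs between the genes. The 95% counting interval in replicate 4 was -0.64 to -0.54 for Npm1 and -0.36 to 0.14 for Polr1e. The number of libraries also limits the precision.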

Other observations

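Beside the RNA polymerase I genes, 14 genes for subunits and factors of RNA polymerase III, which makes transfer RNA and 5S ribosomal RNA, were read from a further list. With all 6 libraries, 2 fell (14.3%, beside 10.5% of all tested genes), 1 rose (beside 12.4%) and 11 did not pass. Polr3g and Polr3gl encode alternative forms of the same subunit, of which the first is known from dividing and immature cells. Polr3g gave 18.05, 19.05 and 18.4 CPM in control 1, 2 and 4 and 11.3, 8.57 and 10.3 CPM in KCl 1, 2 and 4. Its log2 fold change was -0.88 ± 0.11 (edgeR adjusted p = 0.00503, n = 3 per group). The Polr3g call was kept in each of the 6 fits that left out 1 library and lost without both replicate 4 libraries (edgeR adjusted p = 0.0771). Polr3gl gave 10.9, 10.9 and 11.2 CPM in control 1, 2 and 4 and 13.97, 14.2 and 13.4 CPM in KCl 1, 2 and 4 and 0.34 ± 0.07 (edgeR adjusted p = 0.0153), a call lost without control 4 or KCl 4 (adjusted p 0.0584 to 0.0717). Neither gene was exchanged in replicate 4, and in both the groups did not overlap.

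Among 18 genes of the amino acid response, which the factor ATF4 drives, 8 fell (44.4%), 1 rose and 9 did not pass. Of the 18 genes 13 were below in replicates 1 and 2, and 4 were exchanged in replicate 4 (22.2%). Among tested genes below in replicates 1 and 2, 1844 of 4313 were exchanged. Over all tested genes, 10.5% fell, 12.4% rose and 13.8% were exchanged. Gars, the glycyl-tRNA synthetase, gave 246, 240.4 and 240.5 CPM in control 1, 2 and 4 and 191, 188 and 189 CPM in KCl 1, 2 and 4 and -0.35 ± 0.04 (edgeR adjusted p = 0.00422). Asns, asparagine synthetase, gave 72.5, 66.1 and 67.7 CPM in control 1, 2 and 4 and 33.2, 31.7 and 34.6 CPM in KCl 1, 2 and 4 and -1.05 ± 0.06 (edgeR adjusted p = 0.00167). The medians of this list were -0.25 in replicates 1 and 2 and -0.18 in replicate 4, where those of the 51 ribosome biogenesis and nucleolar genes were -0.33 and 0.26. The contrast between the lists was not tested.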
